A study of Mus musculus with 2 samples.

Results

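Cd209a conventional dendritic cells type 2 (Cd209a cDC2s) were selected from 2 scRNA-Seq libraries of mouse hind limb muscle after nerve injury by their own measured counts. A barcode was taken when it had more than 200 genes, less than 10% mitochondrial UMIs and at least 5 UMIs of H2-Ab1, an MHC class II chain. It also had to carry a UMI of at least 3 of the 7 genes Cd209a, Klrd1, Cd7, H2-Oa, Bcl11a, Flt3 and Cd209e, and no UMI of Xcr1, Clec9a, Ccr7 or Siglech. A UMI (unique molecular identifier) marks 1 captured RNA molecule, and a barcode stands for 1 droplet that is read as a cell. The selection gave 569 of the 48143 barcodes that passed the filters on genes and mitochondrial UMIs, with 310 of 23385 in the IgG library and 259 of 24758 in the SPP1-nAb library.

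The labels give male C57BL/6J mice aged 10 to 16 weeks, whereas the study's methods name S100GFP-tg mice for the antibody experiments. The peroneal nerves had been injured on both sides and muscle was collected at 7 dpi (7 days after injury). The labels' protocol and the methods list tibialis anterior (TA) and gastrocnemius among the collected muscles, while the study's account of this experiment names TA alone, and whether muscles were pooled is not given in the sources used here. Through injections of 10 µL into the TA, repeated every 2 days, the mice had received either 2 µg of a neutralizing antibody against SPP1 (osteopontin, a secreted glycoprotein that binds integrins and CD44) or 2 µg of goat anti-mouse IgG as the control. The sample titles name cells positive for S100GFP, a reporter of Schwann cells, whereas the sorting protocol lists live cells with and without GFP; no marker of dendritic cells was used in the sort. Each condition was 1 library, and how many mice were pooled is not given in the sources used here. No test between the conditions was therefore possible, treatment and library cannot be told apart, and every 95% interval given here covers counting error only. The Cd209a cDC2s held 1606612 UMIs in the IgG library and 1613935 in the SPP1-nAb library, with medians of 4632 and 5410 UMIs per cell. Of all barcode sequences, 163 occurred in both libraries, and 1 cell of each library's Cd209a cDC2s carried such a sequence.

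Conventional dendritic cells take up material in tissues, carry it to draining lymph nodes and present peptides of it to T cells. They develop from precursors that depend on the receptor Flt3. Type 1 cells (cDC1s) carry Xcr1 and Clec9a, depend on Irf8 and are known for presenting antigen to CD8 T cells, whereas type 2 cells often depend on Irf4 and mainly prime CD4 T cells. Activated dendritic cells gain Ccr7, the receptor that guides them to lymph nodes, and cells in that state are called mregDCs when they also carry maturation and regulatory genes.

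Cd209a, which gives this population its name, encodes a C-type lectin of the DC-SIGN family. It lies on chromosome 8 of GRCm39 at chr8:3793397-3798984 on the minus strand, and Cd209e (chr8:3897965-3904309) and Cd209d (chr8:3921824-3928568) follow on the same strand, so that these 3 genes span 135 kb. Their promoters are shown because the levels of the 3 lectins are described together below. Each window runs from 250 bases before to 50 bases after the start of the gene, 5′ to 3′ on the minus strand, as RefSeq gives it for GRCm38.p6, and capitals mark matches to the ETS-IRF composite element GGAANNGAA on either strand.
Cd209a, chr8:3748935-3749234: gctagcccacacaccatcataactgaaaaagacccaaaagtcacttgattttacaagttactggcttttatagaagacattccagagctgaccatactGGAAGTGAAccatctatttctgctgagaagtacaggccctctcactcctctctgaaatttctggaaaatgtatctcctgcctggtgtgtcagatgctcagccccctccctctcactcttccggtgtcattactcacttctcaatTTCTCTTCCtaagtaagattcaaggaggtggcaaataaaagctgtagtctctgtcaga
Cd209e, chr8:3854237-3854536: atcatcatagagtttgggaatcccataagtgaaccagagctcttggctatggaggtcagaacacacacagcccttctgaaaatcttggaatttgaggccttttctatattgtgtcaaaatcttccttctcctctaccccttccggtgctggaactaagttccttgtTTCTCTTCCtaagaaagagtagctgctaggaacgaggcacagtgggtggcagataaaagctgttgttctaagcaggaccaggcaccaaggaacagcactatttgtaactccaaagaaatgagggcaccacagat
Cd209d, chr8:3878450-3878749: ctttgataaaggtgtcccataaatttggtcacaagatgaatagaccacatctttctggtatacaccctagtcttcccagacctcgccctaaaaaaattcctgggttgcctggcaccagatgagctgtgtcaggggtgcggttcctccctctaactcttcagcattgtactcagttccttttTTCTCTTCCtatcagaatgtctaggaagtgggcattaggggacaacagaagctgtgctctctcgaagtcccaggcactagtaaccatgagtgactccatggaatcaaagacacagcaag
A match began at positions -152 and -8 in Cd209a, counted from 0 at the gene start, at -84 in Cd209e and at -69 in Cd209d. In all 3 genes the match on the opposite strand read TTCTCTTCC. Of the other selecting genes with a window in the RefSeq table, Bcl11a had 1 match at -159 whereas Flt3 and H2-Oa had none. Cd209c, a further lectin of the family outside the selection, had none either. The element was found in 8.24% of 32851 mouse promoters of this length, and a match describes these letters only. The PU.1 box GAGGAAG, which 13.6% of the promoters held, was in none of the windows of Cd209a, Cd209d, Cd209e, Cd209c, Bcl11a, Flt3, H2-Oa or Mgl2.

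The genes used for the selection are given as a description, with no test. Levels are in CPM, the UMIs of a gene summed over cells divided by all UMIs of the same cells and multiplied by 1000000. Cd209a stood at 1099 CPM in the IgG library (95% interval 1048 to 1151) and at 991 CPM in the SPP1-nAb library (943 to 1041), against 42.6 and 29.5 CPM in all other kept barcodes. A Cd209a UMI was found in 88.4% and 91.5% of the Cd209a cDC2s, and in 73.1% and 76.4% after each cell was thinned to 2000 UMIs. Macrophages, which should lack the gene, carried such a UMI in 4.76% and 2.30% of cells; their median depth was 4212.5 UMIs in the IgG library and 5520 in the SPP1-nAb library. The Cd209a cDC2s, 1.33% and 1.05% of the kept barcodes, held 30.3% and 30.1% of each library's Cd209a UMIs.

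Klrd1, the chain CD94 of an NK cell receptor, stood at 748 CPM in the IgG library and 564 CPM in the SPP1-nAb library. Both Klrd1 and Cd209a were found in 79.4% and 74.1% of the cells. Only 2 and 5 cells had neither of the pair. Cd7, an immunoglobulin superfamily protein of lymphocytes and some dendritic cells, was at 192 and 202 CPM, and Bcl11a, a transcription factor of early dendritic cell and B cell development, was at 169 and 210 CPM. Flt3 was at 132 and 109 CPM, and H2-Oa, which restrains peptide loading of MHC class II, was at 115 and 74.4 CPM. Cd209e, a further lectin of the family, was the gene of the selection that differed by more than 2-fold between the libraries, at 69.1 and 198 CPM and in 15.5% and 30.5% of the cells. Reads of Cd209 family members may be split between similar copies, so levels of a single member carry that uncertainty.

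**Figure D1:**
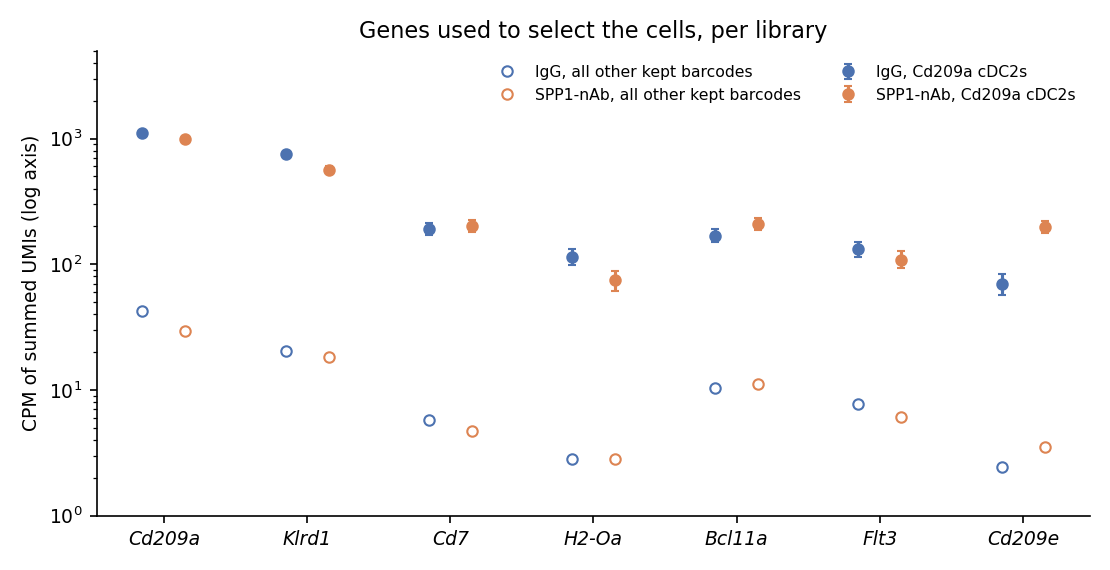
CPM (log axis) of the 7 genes used for the selection, in Cd209a cDC2s (filled points, bars give exact 95% Poisson intervals) and in all other kept barcodes (open points) of the IgG and SPP1-nAb libraries. Cd209e differs between the libraries, at 69.1 and 198 CPM, by more than the other 6 genes.

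The selection is a threshold on the number of genes found. Exactly 3 of the 7 genes were found in 155 and 125 of the cells in the IgG and SPP1-nAb libraries, 4 genes in 96 and 75, 5 in 43 and 41, 6 in 14 and 12, and all 7 in 2 and 6. A further 278 and 205 barcodes just outside the selection carried 2 of the genes and met every other condition. In those outside, C1qb, a complement gene of macrophages, stood at 386 and 564 CPM against 104 and 157 CPM in cells with 3 of the genes, and Mgl2 at 856 and 1287 CPM against 661 and 853 CPM. H2-DMb2, a chain of the peptide-loading complex, went the other way, with 98.3 and 103 CPM outside against 156 and 135 CPM in cells with 3 of the genes. In cells with 5 or more of the genes C1qb was at 156 and 164 CPM and H2-DMb2 at 123 and 174 CPM.

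The share of Cd209a cDC2s among kept barcodes was 1.33% in the IgG library (exact binomial 95% interval 1.18 to 1.48) and 1.05% in the SPP1-nAb library (0.923 to 1.18). The log2 ratio of the shares, SPP1-nAb over IgG, was -0.34 (-0.59 to -0.099). When every barcode was first thinned to 2000 UMIs the shares were 0.842% and 0.570%. Among barcodes with at least 5 H2-Ab1 UMIs they were 3.82% and 2.50%, a log2 ratio of -0.61 (-0.85 to -0.37). Fewer cells of 1 type and more cells of others cannot be told apart in a share, and macrophages made up 21.8% and 28.0% of the same barcodes. The difference narrowed when Ccr7 was not used to leave cells out. At the 3-gene threshold, 49 barcodes in the IgG library and 106 in the SPP1-nAb library were left out for a UMI of Ccr7 alone. With Ccr7 allowed the shares were 1.54% and 1.47%, a log2 ratio of -0.058, and with none of the 4 excluding genes used they were 1.95% and 1.85%, a log2 ratio of -0.079. Other selections left the IgG share above the SPP1-nAb share. Among the related populations, set by marker rules of their own, mregDCs made up 0.184% (43 cells) and 0.299% (74 cells), and cDC1s 1.42% (333 cells) and 1.20% (297 cells).

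**Figure D2:**
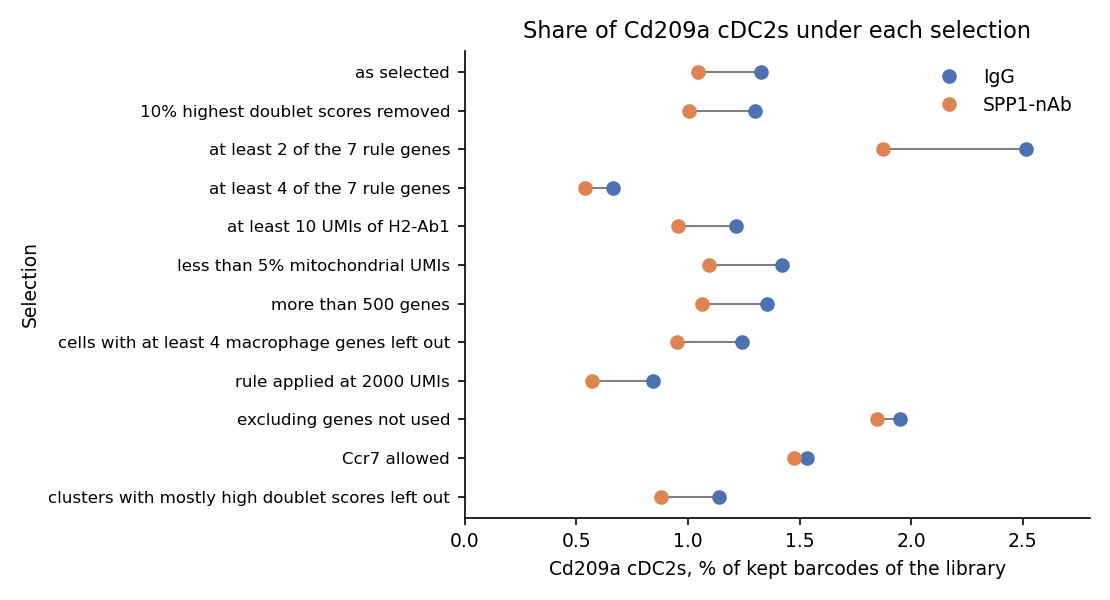
Share of Cd209a cDC2s among the kept barcodes of the IgG and SPP1-nAb libraries, in percent, under the selection used and 11 other selections. The points of the libraries lie apart at 1.33% and 1.05% as selected and nearly meet, at 1.54% and 1.47%, when cells with a Ccr7 UMI are allowed.

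Of the cDC2 genes that the selection did not use, some were present and others nearly absent. Clec10a and Mgl2, C-type lectins of cDC2s and macrophages that bind galactose and N-acetylgalactosamine, stood at 404 and 563 CPM in the IgG library and at 477 and 784 CPM in the SPP1-nAb library. In cDC1s the same genes were at 11.4 and 17.3 CPM in the IgG library and at 30.2 and 94.0 CPM in the SPP1-nAb library. Irf4, a transcription factor of cDC2s, was at 67.2 and 60.7 CPM, against 2.73 and 9.65 CPM in cDC1s and 16.2 and 9.53 CPM in macrophages. Zbtb46, a factor of conventional dendritic cells, was at 41.7 and 48.3 CPM, against 2.72 and 2.03 CPM in macrophages. Sirpa and Itgam, surface markers of cDC2s, stood at 101 and 174 CPM in the IgG library and at 106 and 188 CPM in the SPP1-nAb library, above cDC1s in both libraries and below macrophages in both. The cDC2 genes Esam and Clec4a4 were at most at 0.622 CPM, Epcam at 1.24 and 1.86 CPM, and Dtx1 had no UMI.

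Markers of other cell types differed in level, with T and NK cell markers near 0 and macrophage markers well detected. Although Klrd1, Cd7 and Klrk1 are also known from NK cells, the 12 T and NK cell markers (Cd3d, Cd3e, Trac, Nkg7, Ncr1, Prf1 and others) summed to 0 UMIs in the IgG library and 1.24 CPM in the SPP1-nAb library. None of 310 and 259 cells carried 2 or more of these markers, which allows shares of up to 1.18% and 1.41% of cells with 2 detected at this depth, and sets no limit on cells that express them. Irf8 and Cadm1, cDC1 genes, were at 58.5 and 26.8 CPM in the IgG library and 39.7 and 11.8 CPM in the SPP1-nAb library, against 865 and 389 CPM and 516 and 260 CPM in cDC1s. The mregDC genes Fscn1 and Ccl22 were at no more than 4.36 CPM, against at least 599 CPM in mregDCs. The 15 macrophage and monocyte markers were all detected and summed to 2503 and 2398 CPM, with Lyz2, at 1104 and 1060 CPM, the most abundant. The log2 ratio of these sums was -0.06. It was -2.83 once an estimate of free RNA (RNA captured from outside the cell) was removed, 10.2% of the UMIs in the IgG library and 20.9% in the SPP1-nAb library. That estimate scaled the summed profile of all barcodes to the neutrophil and stromal markers of the Cd209a cDC2s. Cluster 5, described below, held 774 UMIs of the stromal marker Dcn. The estimate therefore does not separate free RNA from RNA of stromal cells in the same droplet. A UMI of at least 4 of 7 macrophage genes was found in 20 cells (6.45%) of the IgG library and 24 cells (9.27%) of the SPP1-nAb library. Among the 10% of barcodes with the highest doublet score were 36 and 35 of the Cd209a cDC2s.

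**Figure D3:**
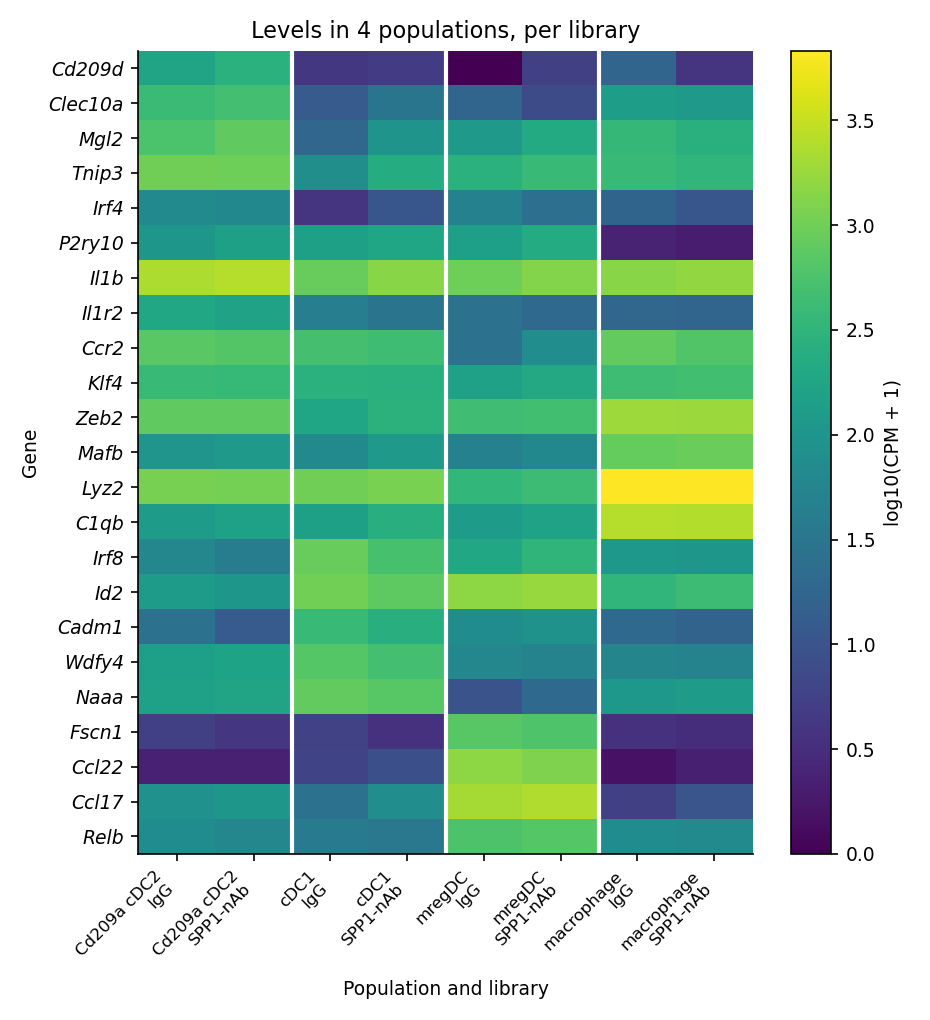
Levels of 23 genes, as log10(CPM + 1), in Cd209a cDC2s, cDC1s, mregDCs and macrophages of each library. Clec10a, Tnip3 and Irf4 are higher in the Cd209a cDC2s than in the cDC1s of both libraries, and Irf8, Cadm1 and Fscn1 are lower than in the cDC1s or mregDCs that they mark.

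Transcription factors were compared with the other populations. Zeb2, a repressor needed for cDC2s and monocytes, was at 787 and 794 CPM, against 177 and 288 CPM in cDC1s and 1892 and 1816 CPM in macrophages. Id2, an inhibitor of E proteins, was low at 128 and 105 CPM, against 1026 and 752 CPM in cDC1s and 332 and 425 CPM in macrophages. Rel, an NF-κB subunit, was at 1005 and 1027 CPM, against 482 and 561 CPM in cDC1s, 586 and 594 CPM in macrophages and 2263 and 2491 CPM in mregDCs. Klf4, which some cDC2s need, was at 380 and 362 CPM, against 275 and 266 CPM in cDC1s and 443 and 471 CPM in macrophages. Of these 4, Zeb2 and Klf4 lay between cDC1s and macrophages, Id2 below both and Rel above both. Tbx21, which marks a subset of cDC2s, was found in 3.23% and 3.86% of the cells.

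Genes of antigen presentation were abundant. Cd74, the invariant chain, stood at 20453 and 18258 CPM, H2-Aa at 8022 and 7510 CPM and H2-Eb1 at 6439 and 6185 CPM; in macrophages, chosen with the same minimum of H2-Ab1, Cd74 was at 12243 and 10658 CPM. H2-DMb2 was at 168 and 159 CPM, against 49.2 and 50.4 CPM in cDC1s, 127 and 241 CPM in mregDCs and 8.20 and 7.80 CPM in macrophages. H2-Ob, the partner chain of H2-Oa, was at 51.0 and 38.4 CPM, against 97.4 and 89.4 CPM in cDC1s. Among co-stimulatory molecules Tnfsf9, the ligand of 4-1BB, was at 544 and 409 CPM, against 74.2 and 49.9 CPM in cDC1s and 201 and 152 CPM in macrophages. Cd80 and Cd40 were at 133 and 38.0 CPM in the IgG library and 146 and 42.8 CPM in the SPP1-nAb library, below the 314 and 212 CPM and the 276 and 274 CPM of mregDCs.

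Il1b, the inflammatory cytokine, was at 2289 and 2517 CPM, against 876 and 1414 CPM in cDC1s and 1393 and 1635 CPM in macrophages, and its decoy receptor Il1r2 was at 194 and 163 CPM, against 17.1 and 16.6 CPM in macrophages. An Il1b UMI was also found in 38.2% and 56.3% of all other kept barcodes, against 73.2% and 81.1% of the Cd209a cDC2s, and the part of free RNA in these levels was not tested. The 18 cytokines of the list summed to 2741 and 3004 CPM. After Il1b the highest was Tgfb1, at 207 and 226 CPM, followed in the IgG library by Tnf, at 75.9 and 43.4 CPM, whereas Il6 was at 36.7 and 27.3 CPM, Il23a at most 0.622 CPM and Il12b had no UMI. Of the chemokines, Ccl4 was at 1113 and 789 CPM, Cxcl2 at 586 and 777 CPM and Ccl17 at 84.7 and 105 CPM, the last against 2055 and 2361 CPM in mregDCs. Ccr2, the receptor that draws monocytes and some dendritic cells from blood, was at 707 and 643 CPM, against 825 and 625 CPM in macrophages. P2ry10, a receptor of lysophospholipids, was at 105 and 151 CPM, against 1.44 and 1.04 CPM in macrophages, 148 and 178 CPM in cDC1s and 144 and 224 CPM in mregDCs. Toll-like receptors were low, with Tlr2 at 46.1 and 53.9 CPM and the others at no more than 14.3 CPM.

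Of the receptors of SPP1, Cd44 stood at 599 and 661 CPM, Itgb1 at 409 and 322 CPM and Itga4, a chain of VLA-4, at 195 and 145 CPM. Itgav was at 36.1 and 49.6 CPM, against 153 and 213 CPM in macrophages, and Itgb3, Itgb5, Itgb8, Itga8 and Itga9 were each at no more than 6.22 CPM. Spp1 itself was read from few cells. It had 159 UMIs in 29 cells of the IgG library and 629 UMIs in 32 cells of the SPP1-nAb library, 99.0 and 390 CPM. The 5 cells with the most UMIs held 81.1% and 93.5% of these, and 1 cell of the SPP1-nAb library held 521. Without those 5 cells of each library the levels were 19.2 and 26.3 CPM. Of the 5, 3 and 5 carried at least 4 macrophage genes, and 4 and 4 were among the highest doublet scores. Kept barcodes outside the population stood at 540 and 915 CPM.

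Outside the selecting genes, the 20 genes with the largest ratio of Cd209a cDC2s over all other kept barcodes, by the lower of the libraries, were taken from 2850 genes found in at least 20% of the cells of each library. They are a description of the selection. Klrb1b, an inhibitory lectin-like receptor of NK cells, came first with 293 and 172 CPM in the Cd209a cDC2s against 16.7 and 11.3 CPM in the rest, followed by Kynu, which acts in tryptophan catabolism, with 64.7 and 109 CPM against 4.56 and 7.72 CPM. Kmo, of the same pathway, and the further NK receptor Klrk1 (NKG2D) were among the 20. Others were H2-DMb2, P2ry10, the adaptor Grap2, Cd209d, H2-Ob, the protease Napsa, Gm15987, Gpr171, Ifitm1, Arap2, Ctnnd2, Wnt11, Stat4, the integrin chain Itgb7, the serotonin receptor Htr7 and the kinase Vrk1. Several were not confined to this population. Klrb1b was at 214 and 193 CPM in cDC1s, Stat4 at 275 and 366 CPM in mregDCs, and Htr7 at 213 and 232 CPM in cDC1s. Kynu was higher in mregDCs than here, at 106 and 145 CPM. Gpr171 was at 219 and 267 CPM in cDC1s, against 97.1 and 145 CPM here. Klrk1 was at 183 and 114 CPM in cDC1s and 148 and 175 CPM in mregDCs, against 179 and 89.8 CPM here. Itgb7 was at 126 and 114 CPM in cDC1s, against 130 and 113 CPM here. P2ry10 was higher in cDC1s and mregDCs than here, and H2-DMb2 was higher in the mregDCs of the SPP1-nAb library, at the levels given above. Cd209d, at 171 and 279 CPM, was by contrast at 3.19 and 3.78 CPM in cDC1s, 0 and 4.38 CPM in mregDCs and 16.9 and 2.86 CPM in macrophages.

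Cell cycle genes were found in part of the population. At least 4 of 16 cell cycle genes were found in 35 cells (11.3%) of the IgG library and 34 cells (13.1%) of the SPP1-nAb library. Of these 69 cells 31 lay in cluster 5, which carried stromal genes and is described below, and outside it 21 of 284 cells (7.39%) and 17 of 237 cells (7.17%) carried as many. After thinning to 2000 UMIs the shares were 5.5% and 6.69%, against 16.0% and 17.0% in cDC1s and 0.908% and 0.916% in macrophages. The intervals of the libraries overlapped within the Cd209a cDC2s, which does not show that the shares were equal. The proliferation gene Mki67 was at 102 and 88.6 CPM and Top2a, a topoisomerase of dividing cells, at 157 and 152 CPM. Of the UMIs of these genes, 220 of Mki67 and 410 of Top2a lay in cluster 5, described below, where 26 of 48 cells were among the highest doublet scores. In clusters 1 to 3 Top2a was at 20.5, 36.8 and 6.86 CPM, and in clusters 4 and 7 at 67.8 and 88.2 CPM.

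Levels in the Cd209a cDC2s were then set side by side between the libraries. Of 4216 genes with at least 100 UMIs over both libraries and a UMI in at least 20 cells, 52 (1.23%) differed by 2-fold or more. The SPP1-nAb library was higher for 42 (0.996%) and lower for 10 (0.237%), while the median log2 ratio of all 4216 genes was 0.039. None of the 486 genes with at least 1000 UMIs was among the 52. With the clusters made mostly of high doublet scores left out, 24 genes were higher and 11 lower of 3369. In all other kept barcodes, where the median log2 ratio of all 4216 genes was 0.038, 30 of the 42 genes were also higher and 8 of the 10 also lower. The shares of all 4216 genes higher or lower there are not given here, so these counts have no background. By 2-fold or more, 4 of the 42 were higher there and none of the 10 lower, and 24 of all 4216 genes differed by as much there in either direction.

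**Figure D4:**
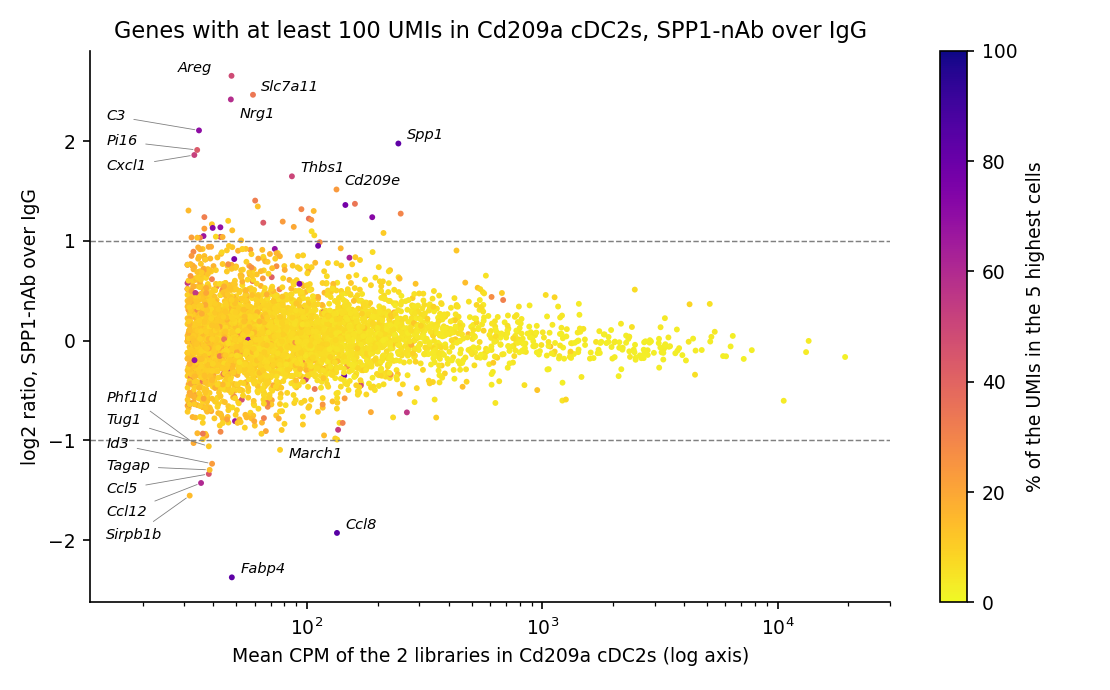
Log2 ratio, SPP1-nAb over IgG, in Cd209a cDC2s against the mean CPM (log axis) for the genes tested, 1 point each and 1 gene not shown, with dashed lines at 2-fold and color giving the percent of a gene's UMIs held by its 5 highest cells. Spp1, Fabp4 and Ccl8 lie far out but have most UMIs in 5 cells, whereas Tagap and Sirpb1b do not.

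Many of the largest ratios came from a handful of cells. Of the 42 and 10 genes, 11 and 3 had at least 50% of their UMIs in the 5 cells with the most, against 35 of all 4216. Fabp4, a fatty acid carrier, had 129 and 25 UMIs, a log2 ratio of -2.37, with 83.1% in 5 cells. Ccl8, a monocyte chemokine, had 341 and 90 UMIs, a log2 ratio of -1.93, with 84.7% in 5 cells; 315 of the UMIs of the IgG library lay in 4 cells of the macrophage gene cluster described below. The same held for Nrg1, a growth factor of Schwann cells, at 14.9 and 79.9 CPM (log2 ratio 2.42), for the complement gene C3 at 13.1 and 56.4 CPM (2.11), for Cxcl1 at 14.3 and 52.0 CPM (1.86), for Thbs1 at 41.7 and 131 CPM (1.65) and for Ccl12 at 51.7 and 19.2 CPM (-1.43).

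Other genes had less than 50% of their UMIs in 5 cells. Slc7a11, the cystine transporter, had 29 UMIs in 14 cells of the IgG library and 161 UMIs in 46 cells of the SPP1-nAb library, at 18.1 and 99.8 CPM, a log2 ratio of 2.47 (1.89 to 3.09). Areg, the EGF receptor ligand amphiregulin, had 21 UMIs in 12 cells and 133 UMIs in 31 cells, at 13.1 and 82.4 CPM, a log2 ratio of 2.66 (1.99 to 3.40). Cd209e had 111 UMIs in 48 cells and 319 UMIs in 79 cells, a log2 ratio of 1.52. As it is 1 of the 7 selecting genes, cells entered partly through its UMIs and its values are a description, and in all other kept barcodes its log2 ratio was 0.53. The share of UMIs in 5 cells was 33.7% for Slc7a11, 48.7% for Areg and 23.5% for Cd209e, against a median of 8.23% over all 4216 genes. Pi16, a fibroblast gene, had 23 UMIs in 17 cells and 87 UMIs in 34 cells, with 43.6% in 5 cells, a log2 ratio of 1.91. Its log2 ratio was 1.00 without the highest doublet scores, 0.88 without the clusters made mostly of them, and -1.5 in all other kept barcodes. These 4 genes were higher in the SPP1-nAb library in a larger share of cells as well as in CPM.

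On the lower side March1 (now Marchf1), the ubiquitin ligase that removes MHC class II from the surface, had 168 UMIs in 99 cells of the IgG library and 79 UMIs in 58 cells of the SPP1-nAb library, at 105 and 48.9 CPM, a log2 ratio of -1.10 (-1.5 to -0.70). Sirpb1b, of the signal regulatory proteins, had 76 and 26 UMIs in 55 and 24 cells (log2 ratio -1.55), and Tagap, a GTPase-activating protein of T cells and dendritic cells, 88 and 36 UMIs in 63 and 27 cells (-1.30). Ccl5, Id3, the noncoding RNA Tug1 and the interferon gene Phf11d had log2 ratios of -1.34, -1.23, -1.06 and -1.03. Under the alternatives that can change a gene's ratio, Ccl5, Id3, Tug1 and Phf11d were past 2-fold in 8 of 13, 10 of 12, 10 of 13 and 9 of 13, with the values nearest to 0 at -0.27, -0.87, -0.54 and -0.16. March1 was past 2-fold in 12 of 13, C3 in 9 of 12 and Thbs1 in 11 of 12. The directions of Areg, Slc7a11, Sirpb1b and Tagap, at 2-fold or more, were kept under the 13 such alternatives tried for each of them. Spp1, Nrg1, Cxcl1, Fabp4, Ccl8 and Ccl12 each reversed under at least 1 alternative.

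Gene groups were described by their tested members. Over all 4216 genes, 0.996% were higher and 0.237% lower by 2-fold or more. Of 16 antigen presentation genes tested, none was higher and 1, March1, was lower by 2-fold or more, and their median log2 ratio was -0.08. Of 10 cDC2 genes outside the selection and 12 C-type lectins, none passed 2-fold in either direction, with medians of 0.18 and 0.36 and sums of 2704 and 3079 CPM and of 2477 and 2960 CPM. Cd209e, a lectin given above as higher, is a selecting gene and on neither list. Of 14 chemokines of the list used, 3 were lower (Ccl5, Ccl8 and Ccl12) and none higher, with a median of -0.47. With the clusters made mostly of high doublet scores left out, none of these 3 was past 2-fold, at log2 ratios of -0.85, -0.92 and 0.08, whereas Cxcl2 was higher (1.32) and Ccl3 lower (-1.06). Cxcl1, given above as higher, is not on the list. The log2 ratio of the list's sums was -0.11, and -0.88 with free RNA removed. Of 13 conventional dendritic cell genes, 23 transcription factors, 9 co-stimulation genes and 18 receptors of chemokines and growth factors, none passed 2-fold. Cebpb, a factor of myeloid and inflammatory genes, came near it among the factors, at 301 and 563 CPM, a log2 ratio of 0.90, and was found in 41.9% and 61.8% of the cells. It was past 2-fold, at a log2 ratio of 1.02, with the clusters made mostly of high doublet scores left out. All other kept barcodes of the SPP1-nAb library carried it at 2066 CPM. In those of the IgG library it was at no more than 1484 CPM, the level of Zeb2, the highest of the listed factors there. Cebpb was thus higher in the SPP1-nAb library outside the population as well. Of 6 cytokines tested, 1 (Areg) was higher and none lower.

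Some groups moved in the other kept barcodes as well. The 12 handling stress genes, such as Fos and Jun, summed to 6870 and 5101 CPM in Cd209a cDC2s, a log2 ratio of -0.43 (-0.47 to -0.39), and to a log2 ratio of -0.64 in all other kept barcodes. The 14 interferon genes summed to 1631 and 1257 CPM, a log2 ratio of -0.38, with -0.36 in the others. None of either list's tested genes passed 2-fold. The 7 neutrophil markers, which these cells should lack, summed to 33.6 and 114 CPM, a log2 ratio of 1.76, with 1.18 in the others. It was -1.46 when an estimate of free RNA was removed. These markers helped to set the amount removed, so that value was partly fixed by the method and does not bear on their source. S100a9 was the most abundant at 53.9 CPM in the SPP1-nAb library, and Ly6g had no UMI. The 12 stromal and muscle markers summed to 555 and 607 CPM, with Dcn at 331 and 201 CPM, Myod1 at 0 and 0.62 CPM and Col3a1, at 81.5 and 209 CPM, the member above 2-fold. Of the Col3a1 UMIs 92.3% lay in cluster 5, described below, and in clusters 1 to 4 and 7 it was at 12 and 14.4 CPM, a log2 ratio of 0.26. The list's log2 ratio was 0.13 in Cd209a cDC2s and -1.15 in the others, and within the Cd209a cDC2s it was -1.81 at 2000 UMIs and 1.58 with at least 4 selecting genes. The part of these markers in the differences between the libraries was not tested.

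To see how the cells varied among themselves they were clustered with the selecting and excluding genes and H2-Ab1 left out, which gave 7 clusters. Since the genes that define a cluster are those that formed it, they are given as a description. Cluster 1 (187 cells) was led by Klri1, Skint3, Ccrl2, Il1rl1 and Clec4b1, with Klrb1b at 474 CPM, and cluster 2 (171 cells) by Ramp3, Fdps, Cdh1 and Pes1, at ratios of no more than 2.99 over the rest. Cluster 1 held 35.2% and 30.1% of the cells of the IgG and SPP1-nAb libraries and cluster 2 held 27.4% and 33.2%, with intervals that overlapped. Here and below such overlap does not show equal shares, and no interval for a ratio of cluster shares was computed. Cd209a stood at 1322 CPM in cluster 1 and 1169 CPM in cluster 2.

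Cluster 3 (54 cells) was led by Chl1, a neural adhesion molecule, the chemokine receptor Ccr9, Efna5, Lefty1 and Cyp7b1, an oxysterol hydroxylase found in 74.1% of its cells at 597 CPM. Cd209e and Cd209d were at 665 and 902 CPM there, against 29.6 and 139 CPM in cluster 1, and Cd7 was at 747 CPM against 96.8 CPM. Lyz2 was at 106 CPM against 1298 CPM in cluster 1. None of its cells carried 4 macrophage genes, and 1 was among the highest doublet scores. It held 21 cells (6.77%, 4.24 to 10.2) of the IgG library and 33 cells (12.7%, 8.94 to 17.4) of the SPP1-nAb library, with intervals that overlapped. Within it Cd209e was at 220 and 914 CPM and Areg at 66.9 and 332 CPM in the libraries, and Areg also differed in cluster 2, at 2.48 and 111 CPM. In clusters 1, 2 and 4 Cd209e was at 25.5 and 34.4 CPM, 119 and 156 CPM, and 81.9 and 72.7 CPM. It was at 23.4 and 146 CPM in cluster 5, from 5 and 37 UMIs, and at 41.8 and 72.6 CPM in cluster 6. In cluster 7 it was at 22.9 and 134 CPM, from 2 and 5 UMIs. Areg was at 6.37 and 4.91 CPM in cluster 1 and at 21.8 and 12.1 CPM in cluster 4. Ccr9 is also a marker of plasmacytoid dendritic cells. The 8 markers of those cells summed to 472 and 547 CPM in the Cd209a cDC2s, with Tcf4, which other kept barcodes carried at 576 and 423 CPM, the most abundant at 395 and 455 CPM, and Ly6d and Klk1 had no UMI. Their part in cluster 3 was not tested.

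Cluster 4 (49 cells) was led by the interferon-induced genes Ifit3, Isg20, Ifi206, Slfn1 and Phf11d, with Isg15 at 1344 CPM and in 93.9% of its cells. It held 35 cells (11.3%, 7.99 to 15.4) of the IgG library and 14 cells (5.41%, 2.99 to 8.90) of the SPP1-nAb library, with intervals that overlapped, and Isg15 within it was at 1316 and 1406 CPM. Cluster 7 (23 cells; 16 and 7) was led by Irf8 at 754 CPM and Ifi205 at 1588 CPM, both also cDC1 genes. Its Cd209a was at 120 CPM, its Clec10a and Mgl2 at 8.02 CPM and its Flt3 at 209 CPM, so that it went against the cDC2 name although its cells had no UMI of Xcr1 or Clec9a.

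Clusters 5 and 6 carried genes of other cells. Cluster 5 (48 cells) was led by Fstl1, Ltbp1 and Ptprd, with Dcn at 1655 CPM, and by histone genes. Of its cells 31 carried at least 4 cell cycle genes and 26 were among the highest doublet scores, at a median of 8891.5 UMIs against 4405 in cluster 1. Cluster 6 (37 cells) was led by Spp1, Ccl8, Pf4 and C1qa, among others. Of its cells 31 carried at least 4 macrophage genes and 34 were among the highest doublet scores. Cluster 6 held 99 of the 159 Spp1 UMIs of the IgG library and 578 of the 629 of the SPP1-nAb library. In clusters 1 to 4 and 7 Spp1 was at 14.4 and 16.9 CPM, Areg at 12 and 99.1 CPM, Slc7a11 at 8.0 and 94.9 CPM, Cebpb at 192 and 391 CPM and Cd209e at 80.0 and 228 CPM in the IgG and SPP1-nAb libraries. Of the 24 genes higher and 11 lower by 2-fold or more in those clusters, Retnla had the largest log2 ratio, 6.17. Fn1 (1.40), Ear2 (1.15) and Apoe (1.12), the last a macrophage and monocyte marker, were also higher. The part of macrophage RNA in these differences was not tested.

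**Figure D5:**
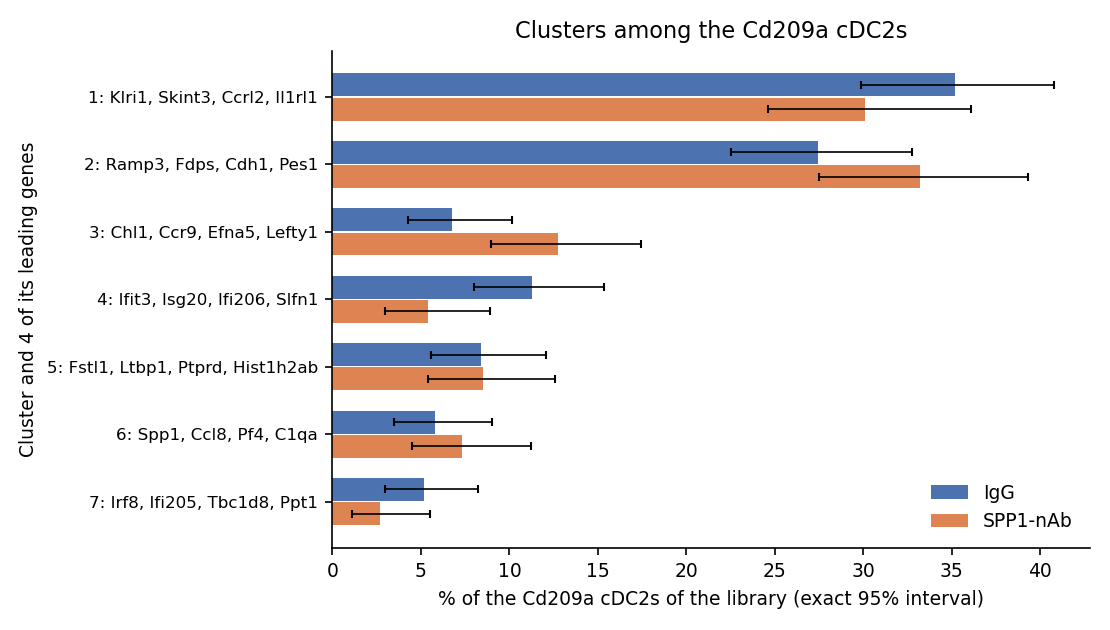
Percent of the Cd209a cDC2s of each library in the 7 clusters, with exact binomial 95% intervals and 4 of the leading genes of each cluster. Cluster 3 lies at 6.77% and 12.7% and cluster 4 at 11.3% and 5.41% (IgG first). The library intervals overlap in each of the 7 clusters, which does not show equal shares.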

How the data were processed

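The data are 2 scRNA-Seq libraries made with the 10x Genomics Chromium system, 1 per condition. The authors deposited counts of UMIs per gene and barcode after Cell Ranger's own choice of barcodes, without normalization. The labels name Cell Ranger 8.0.0 and GRCm39 and the file headers Cell Ranger 9.0.1. The deposited files also hold lists of barcodes and of 32287 features, of which 31674 are in GENCODE M39. Ambient RNA removal, doublet removal and integration by the authors came later and are not in these counts.

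Kept barcodes had over 200 genes, and under 10% of their UMIs were mitochondrial. Cd209a cDC2s were selected as described. The members and the 26 gene lists were chosen with earlier results of these data known. Comparison populations, all with at least 5 UMIs of H2-Ab1, were cDC1s (at least 3 of 8 markers, Xcr1 or Clec9a among them, no Ccr7 or Siglech), mregDCs (Ccr7 and at least 3 of 8 markers) and macrophages (at least 4 of 7 markers, fewer than 3 selecting genes and no excluding gene). Counts were summed per library and divided by the UMIs of the same cells. Intervals are 95%, exact binomial for shares, exact Poisson for levels and exact conditional binomial for ratios, and cover counting error only. No test was run with 1 library per condition. Genes needed at least 100 UMIs and 20 cells. Named genes are the selecting and excluding genes, 2 to 4 genes of each list by level or role, the 10 largest ratios per direction (without mitochondrial, ribosomal, hemoglobin, immunoglobulin and sex genes) and the 20 largest ratios over other barcodes. Some further genes of the lists were named for their role in comparison with other populations.

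Doublets were kept. Each barcode had a doublet score, the fraction of its 40 neighbors that were simulated doublets, in 30 components, with the top 10% per library as an alternative. Clusters came from 1500 variable genes, centered per library, 20 principal components, 15 neighbors and the Leiden algorithm at resolution 0.5, in Python 3.11.15 with numpy 2.4.6, scipy 1.17.1, scikit-learn 1.9.0, igraph 0.11.9 and leidenalg 0.10.2. In simulated counts for the comparison of the libraries (4224 genes, 200 of them with a planted change), 95.6% of the true log2 ratios of all genes lay inside their intervals. These counts were drawn without the concentration of UMIs in few cells described above, so this share need not hold for the data. Of 100 doublets planted among 5100 barcodes, 78% were in the top 10%. Alternatives covered the thresholds, doublets, depth, scaling and free RNA. Free RNA was estimated from the deposited barcodes, not from empty droplets, and the neutrophil and stromal lists set its amount. Kept IgG barcodes held 97022487 UMIs and kept SPP1-nAb barcodes 127244621 UMIs. Clec7a and Mx1 of the lists were not analysed here, and 2 further genes are not reported here.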

Additional observations from a re-analysis of the deposited data

How the results depend on the processing

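The lower share of Cd209a cDC2s in the SPP1-nAb library kept its direction under all 11 alternatives, with log2 ratios from -0.56 to -0.058. It moved outside its interval under both alternatives that used fewer excluding genes, to -0.079 with none of them and -0.058 with Ccr7 allowed, which were chosen after seeing the data. With only barcodes of at least 5 H2-Ab1 UMIs as the total, the log2 ratio was -0.61. Counts of genes past 2-fold (42 higher, 10 lower) depended on the limits. The higher count was 15 without the highest doublet scores, 22 without cells with macrophage genes, 24 without the clusters of high doublet scores and 18 at 2000 UMIs. Counts higher and lower were 68 and 36 with at least 2 selecting genes, 70 and 43 without excluding genes, 86 and 48 at 50 UMIs, 13 and 1 at 300 UMIs, and 195 and 137 past 1.5-fold; the lower count was 42 with free RNA removed and 6 without the 5 cells richest in Spp1. Lists with at least 100 UMIs that passed 1.5-fold numbered 1 (neutrophil markers), 2 with at least 4 selecting genes, without excluding genes or without the clusters of high doublet scores, and 4 at 2000 UMIs or with free RNA removed. Leaving out those clusters and the 5 cells richest in Spp1 was also chosen after seeing the data. Log2 ratios reversed for Ccl12 (0.51 without high doublet scores, 0.082 without their clusters), Spp1 (-0.66 with at least 10 H2-Ab1 UMIs, -2.08 without macrophage gene cells), Ccl8 (0.82 without macrophage gene cells, 4.12 at 2000 UMIs), Nrg1 (-1.75), Cxcl1 (-0.26) and Fabp4 (0.68), these at 2000 UMIs, and the neutrophil list (-1.46 with free RNA removed), whose ratio was past 1.5-fold. Among the 22 lists, 27 of 264 ratios had the other sign, in 12 lists, such as the stromal list (0.13, lowest -1.81) and SPP1 and its receptors (0.22, lowest -0.31), both lowest at 2000 UMIs. The neutrophil and stromal lists set the amount of free RNA removed, so their own ratios under that alternative were partly fixed by it. The causes were not tested. The number of clusters was 7, with 10 and 7 at resolutions 1 and 0.3 and 6 without high doublet scores. No paired analysis was possible because each condition had 1 library and no result came from a test.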
